A study of Bos taurus and Bubalus bubalis with 9 samples.

Results

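Exon-intron circRNAs were examined in skeletal muscle of buffalo and cattle and in subcutaneous fat of cattle. They are the back-splice junctions that carry the type exon_intron in the deposited circRNA tables, and they were taken by that type alone. With a read in at least 1 of the libraries used, there were 368 among 4737 circRNAs of the buffalo table and 1440 among 18535 of the cattle table. Together these are 1623 distinct junctions of 20659. The exon type, with 4208 and 16223 circRNAs, served as the comparison. The sources used here do not say how circRNAs were called or types assigned. A row gives only the 2 ends that were joined, so it does not show which introns, if any, lie inside the molecule.

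The 9 libraries were of longissimus dorsi muscle of 3 Xinyang buffalo, labelled low in intramuscular fat (IMF), of the same muscle of 3 Nanyang cattle, labelled high in IMF, and of back subcutaneous fat of Nanyang cattle, 3 libraries each. All animals were weaned at 3 months, castrated at 6, fattened from 18 and slaughtered at 30 months of age. Species and farm went together, since each species came from its own farm. Buffalo adipose libraries were not analysed here. The cattle assembly UMD3.1 served as the alignment target for buffalo and cattle alike and gives all coordinates below. The values are RPM per junction, and each is a whole number of reads. Junction reads per library numbered 4472 to 6122 in buffalo, 15440 to 27141 in muscle of cattle and 12042 to 21053 in their fat. The 2 circRNA tables were normalized separately, so buffalo and cattle levels stand side by side without a test.

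A circRNA forms when the spliceosome joins a downstream splice donor back to an upstream splice acceptor, which closes the exons between them into a covalent ring. Most known circRNAs hold exons only and lie in the cytoplasm. Exon-intron circRNAs keep an intron between their exons. Those first described, from EIF3J and PAIP2, stay in the nucleus, bind U1 snRNP and raise transcription of their own host genes. Neither EIF3J nor PAIP2 gave a circRNA read of the exon_intron or exon type in either table, 0 of 15890 junction reads in buffalo, 0 of 64482 in muscle of cattle and 0 of 47255 in their fat. If junctions that were not listed had 0 reads, counts of 0 of these sizes allow shares of up to 0.0189%, 0.00465% and 0.00635% of junction reads.

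A few junctions dominated the exon_intron reads of muscle, a NEB junction in buffalo and another NEB junction with one of UBE3A in cattle. Without the hosts NEB and UBE3A the type held 7.36% to 8.46% of reads in the means of the 3 tissues. Exon_intron circRNAs held 19.2%, 18.3% and 19.8% of the junction reads in buffalo muscle 1 to 3. They held 13.6%, 11.9% and 12.7% in cattle muscle and 8.04%, 8.61% and 9.19% in cattle adipose tissue. The exact 95% binomial interval of a library reached at most 1.18 percentage points to either side, for counting error only. The means were 19.1% ± 0.749 for buffalo, 12.7% ± 0.877 for muscle of cattle and 8.61% ± 0.575 for adipose tissue (SD, n = 3). All 3 cattle muscle libraries lay above all 3 adipose libraries, by 4.11 percentage points in the mean. An exact permutation test, two-sided, returned p = 0.1, the smallest that 3 libraries against 3 allow.

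Leaving out the host NEB lowered the share to 7.79% ± 0.617 in buffalo muscle and 9.71% ± 0.798 in cattle muscle (n = 3 each). Leaving out UBE3A as well gave 7.29%, 7.45% and 7.34% in cattle muscle and 7.89%, 8.42% and 9.08% in cattle adipose tissue. All 3 muscle libraries then lay below the adipose libraries, and the difference of the means was -1.10 percentage points. These hosts were chosen after the values were seen and for their reads in muscle, and no host high in adipose tissue was left out, so this direction is a description with no test. Counted as distinct circRNAs, the type made up 7.90% ± 0.491 of those detected in buffalo, 8.27% ± 0.152 in muscle of cattle and 7.81% ± 0.438 in adipose tissue (n = 3 each). The cattle tissues then differed by 0.462 points (exact permutation p = 0.2).

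**Figure D1:**
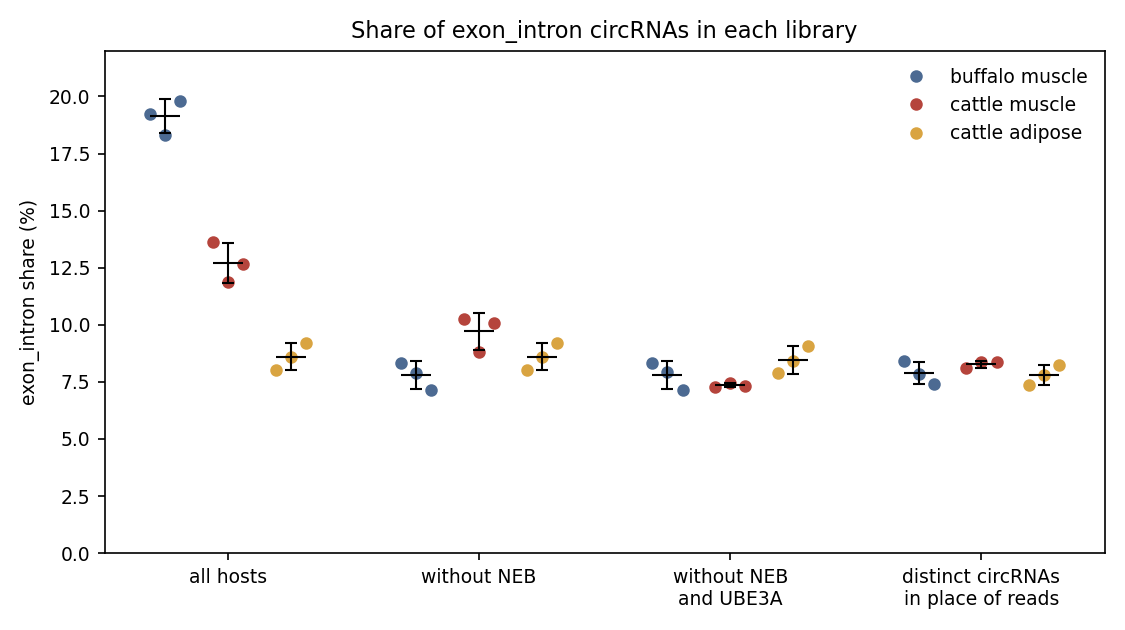
Share of exon_intron circRNAs (%) in each library, with 1 point per library and the mean ± SD of 3 libraries in black. The first 3 sets are shares of junction reads with all hosts, without NEB, and without NEB and UBE3A, and the last is the share of distinct circRNAs. With all hosts the groups stand apart at 19.1%, 12.7% and 8.61%, and without NEB and UBE3A they lie at 7.80%, 7.36% and 8.46%.

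The reads of the type were concentrated in few junctions in muscle. The most abundant exon_intron circRNA held 61.9% to 69.2% of the exon_intron reads of a buffalo muscle library and 22.7% to 28.0% of those of a cattle muscle library. The first and second together held 39.9% to 49.6% in cattle muscle. In cattle adipose tissue the first held 6.51% to 12.1%. The top exon circRNA of the same libraries held far less of the exon reads, 1.69% to 2.27% in buffalo muscle and 3.92% to 5.97% in cattle muscle. Most other members were rare. A library held 137 to 185 exon_intron circRNAs in buffalo, 395 to 574 in muscle of cattle and 345 to 500 in adipose tissue, and 33.0% to 62.0% of them rested on a single read. This share was close to that of exon circRNAs in the same library. The mean difference was -0.513 ± 1.52 percentage points over 6 units, which were the 3 buffalo libraries and the 3 means of same-numbered cattle libraries (exact sign-flip permutation p = 0.4375). No source used here ties a number to an animal, so the cattle means may mix animals. Over the 6 muscle libraries alone, 1 per animal, the difference was -0.285 points (exact permutation p = 0.625).

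Recurrence among animals was likewise close to that of the exon type. In buffalo muscle, 33 of 368 members (8.97%) had a read in all 3 animals, beside 8.32% of exon circRNAs. Cattle gave 139 of 969 (14.3%, exon 12.3%) in muscle and, for adipose tissue, 90 of 857 (10.5%, exon 10.4%). Between 68.8% and 73.9% of the members of a group were seen in 1 animal.

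NEB encodes nebulin, the giant protein that runs along the thin filament of the muscle sarcomere. In buffalo muscle its exon_intron circRNA chr2:44653304-44660629 (plus strand, 7326 bp between the ends) had 631, 697 and 613 reads, or 9.59, 10.9 and 10.2 RPM. The mean was 10.3 ± 0.676 RPM (SD, n = 3), which was 12.3% ± 1.22 of all junction reads. In cattle muscle the leading junction was another one of the same gene, chr2:44660522-44671994 (plus strand, 11473 bp). It had 575, 903 and 629 reads, or 15.2, 21.4 and 17.6 RPM, with a mean of 18.1 ± 3.101 RPM (n = 3). In cattle adipose tissue this junction had 0, 1 and 0 reads.

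Neither junction was listed for the other species. This was taken as 0 reads of the buffalo junction in all 6 cattle libraries and of the cattle junction in all 3 buffalo libraries. How a junction came to be listed is not given in the sources used here. The intervals overlap in 108 bp, chr2:44660522-44660629. The upstream end of the cattle circle and the downstream end of the buffalo circle thus lie at opposite ends of this stretch. Few other junctions used those ends. In buffalo they were chr2:44660522-44677024 with 1 read, chr2:44648280-44660629 with 2 reads and, of the intron type, chr2:44659551-44660629 with 2, 10 and 7 reads. In cattle they were chr2:44660522-44678711 with 1 read and the same intron-type junction with 2.

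The rest of NEB gave little circRNA. Buffalo muscle had 3 exon_intron circRNAs of NEB with 1944 reads in all, 32 exon circRNAs with 109 and 2 intron circRNAs with 21. The cattle libraries had 12 exon_intron circRNAs with 2137 reads, of which the second had 10, beside 43 exon circRNAs with 104 reads and 13 intron circRNAs with 26. NEB is built of repeated, closely similar exons, and the tables do not show how reads that match more than 1 repeat were placed, so the exact ends are uncertain. In the buffalo mRNA table the 2 NEB transcripts were listed at 0 FPKM in all 3 muscle libraries.

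UBE3A encodes an E3 ubiquitin ligase that marks proteins for breakdown. Its circRNA chr21:2404179-2410197 (minus strand, 6019 bp) was the second most abundant member in cattle muscle, with 469, 381 and 624 reads, or 12.4, 9.01 and 17.5 RPM. In cattle adipose tissue it had 20, 42 and 17 reads, or 0.543, 1.13 and 0.438 RPM. The means were 13.0 ± 4.26 and 0.703 ± 0.373 RPM (n = 3 each), and every muscle library lay above every adipose library. No exon_intron read of UBE3A was found in buffalo muscle, and this junction was not listed for buffalo. Taken as 0 of 15890 junction reads, this allows up to 0.0189% of them or 0.0158 RPM over the 3 libraries. The limit holds only if an unlisted junction had 0 reads. The UBE3A mRNA stood at 71.8, 66.2 and 58.3 FPKM in the same buffalo libraries. The 11 exon circRNAs of UBE3A in cattle had 17 reads together, against 1564 for its 4 exon_intron circRNAs, which all had their upstream (acceptor) end at position 2410197.

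**Figure D2:**
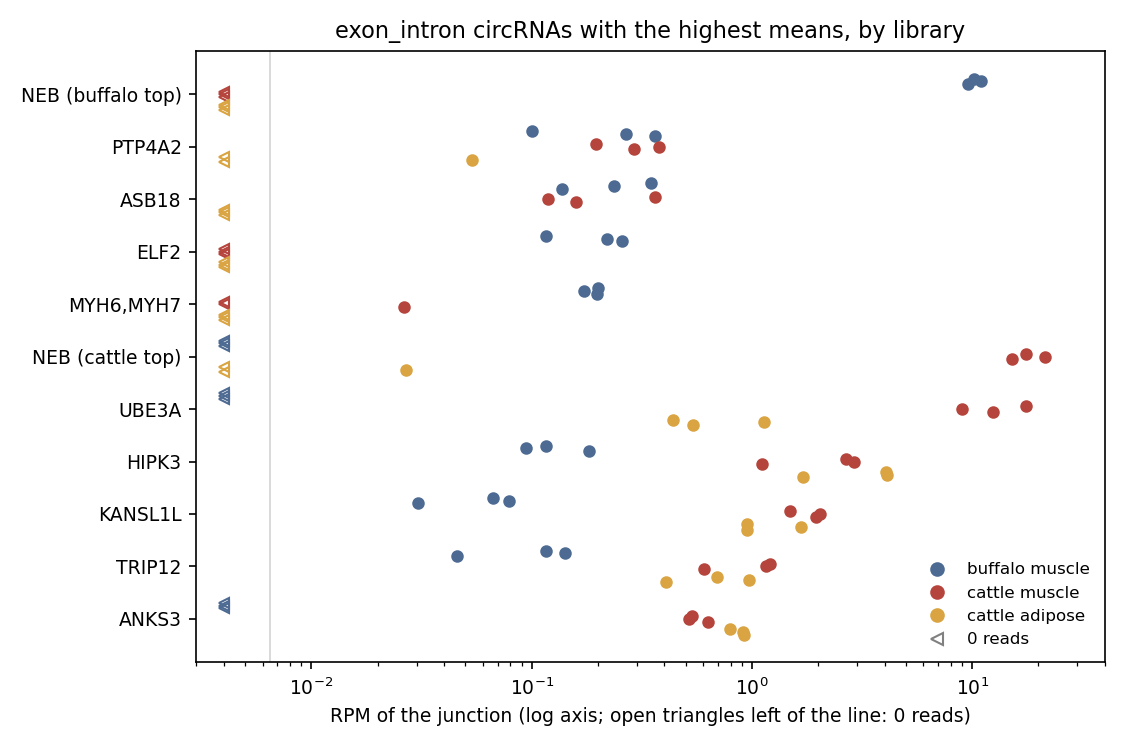
RPM (log axis) of the exon_intron circRNAs that had the 5 highest means in a group, with 1 point per library and open triangles for 0 reads. Junctions not listed for a species are drawn as 0 reads. Either NEB junction appears in muscle of 1 species, apart from 1 read of the cattle junction in an adipose library, and UBE3A appears in the cattle libraries. HIPK3, KANSL1L and TRIP12 were present in all 9 libraries.

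The other leading members of buffalo muscle lay far below NEB. PTP4A2, a protein tyrosine phosphatase, had 24, 17 and 6 reads (0.244 ± 0.134 RPM) at chr2:122349824-122352801. ASB18, an ankyrin repeat protein with a SOCS box, had 9, 15 and 21 reads (0.241 ± 0.107 RPM) at chr3:116336416-116337244. ELF2, an ETS transcription factor, had 17, 14 and 7 reads (0.198 ± 0.0733 RPM) at chr17:18811603-18813214. The SDs are over 3 libraries. PTP4A2 and ASB18 were found in cattle muscle at the same ends, with 0.289 ± 0.0913 and 0.214 ± 0.132 RPM (n = 3). The ELF2 junction was not listed for cattle, which was taken as 0 reads in the 6 cattle libraries. As a share of exon_intron reads, PTP4A2 had 1.55% in buffalo and 0.420% in cattle muscle, and ASB18 had 1.49% and 0.296%. The tables were normalized separately and these values were not tested.

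A junction from chr10:21333554 to 21361063, 27510 bp, was assigned to MYH6, MYH7 and bta-mir-208b together. MYH6 and MYH7 are neighbouring cardiac myosin heavy chain genes of closely similar sequence, and MYH7 is also the myosin of slow muscle fibres. The junction had 13, 11 and 12 reads in buffalo muscle, 1, 0 and 0 in cattle muscle and none in adipose tissue. As it joins near-identical genes, reads could have been split between them, and its ends are uncertain.

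HIPK3, KANSL1L and TRIP12 were among the 5 members with the highest means in both cattle tissues and were also present in buffalo muscle. In cattle adipose tissue HIPK3 and KANSL1L came first, and ANKS3, UBE3A and TRIP12 followed at 0.878 ± 0.0696, 0.703 ± 0.373 and 0.690 ± 0.280 RPM (n = 3), whose spreads overlap. HIPK3, a serine/threonine kinase, is the host of a well-studied circRNA. The HIPK3 member chr15:64704077-64705175 spans 1099 bp. Its 2 ends do not show whether it is that circRNA or whether it holds an intron. It had 42, 123 and 96 reads in cattle muscle, 63, 153 and 158 in adipose tissue and 12, 6 and 7 in buffalo muscle. The mean was 2.24 ± 0.981 RPM in cattle muscle and 3.30 ± 1.37 in adipose tissue (n = 3). The tissues overlapped, and limma gave a log2 difference of -0.40 with SE 0.32 and adjusted p = 0.621. With the replicate number as a block, limma called this member higher in adipose tissue (adjusted p = 0.0141). The labels do not tie that number to an animal.

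KANSL1L is a relative of a subunit of a histone acetyltransferase complex. Its member chr2:98377451-98378567, 1117 bp, had 74, 86 and 53 reads in cattle muscle, 35, 62 and 37 in adipose tissue and 2, 5 and 4 in buffalo muscle. TRIP12, another E3 ubiquitin ligase, had 23, 49 and 43 reads in cattle muscle, 15, 36 and 27 in adipose tissue and 3, 9 and 7 in buffalo muscle at chr2:118712720-118729424. The cattle tissues overlapped for both genes, with adjusted p = 0.213 and 0.541 (limma).

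Of the members, 185 were found in both tables at identical ends, which is 50.3% of the buffalo list and 12.8% of the cattle list. For exon circRNAs the same shares were 56.9% and 14.8%. These shared members held 19.8% to 23.3% of the exon_intron reads of a buffalo library, 22.3% to 25.1% in muscle of cattle and 38.8% to 40.9% in adipose tissue. The 10 with the most reads were HIPK3, KANSL1L, TRIP12, ZDHHC21, ARHGAP5, PTP4A2, KIF27, ZNF532, ASB18 and MSRB3. ARHGAP5, a GTPase-activating protein, had 21, 18 and 8 reads in cattle muscle and 14, 17 and 9 in adipose tissue. ZDHHC21, a palmitoyltransferase, had 23, 17 and 7 against 4, 28 and 19, and MSRB3, a methionine sulfoxide reductase, had 6, 8 and 6 against 2, 17 and 19. The tissues overlapped for all 3. ZNF532, a zinc finger protein, had 9, 26 and 11 reads in muscle against 8, 8 and 5 (adjusted p = 0.337 in limma), with every muscle RPM above every adipose RPM.

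Cattle muscle and adipose tissue were then compared member by member. In bulk tissue, fewer cells of a type and less RNA per cell cannot be told apart. Of the 1440 members, 583 had reads in muscle only, 471 in adipose tissue only and 386 in both. With rising depth the split closed. Among the 82 members with at least 20 reads, 75 were found in both tissues, 7 in muscle only and 0 in adipose tissue only. Exon circRNAs of that depth gave 731, 43 and 2 of 776.

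The filter of at least 2 reads in at least 3 of the 6 libraries left 169 members, with 6 to 2108 reads each and a median of 18. limma on log2(RPM + 1) called 5 of them higher in muscle, 2.96%, beside 3.08% of the 1917 circRNAs tested, with 3.23% called in either direction. None was called higher in adipose tissue, where the share over all circRNAs was 0.156%. At an unadjusted p under 0.05 in limma there were 23 of the 169 members higher in muscle, beside 12.6% of all circRNAs tested, and 11 higher in adipose tissue, beside 4.96%. The median log2 difference was 0.01 over the members and 0.01 over all circRNAs tested. The libraries of the 2 tissues did not overlap for 27 members higher in muscle (16.0%, all circRNAs 15.3%) and 13 higher in adipose tissue (7.69%, all circRNAs 7.93%). A circRNA with under 2 reads in every library of a tissue passed the filter only through the other tissue. Its separation was then fixed by the filter.

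The 5 called members were NEB, UBE3A, ANK3, PTP4A2 and LARP1B. NEB differed by 4.23 on the log2(RPM + 1) scale with SE 0.11 (adjusted p = 5.51e-06). The ratio of pooled levels was 2054, with a 95% counting interval of 368 to 81176 because it rests on 1 adipose read. UBE3A differed by 3.01 with SE 0.24 (adjusted p = 0.00112), a ratio of 18.2 (14.5 to 23.1). Both passed the threshold under all 13 alternatives tried.

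ANK3 encodes ankyrin-G, which anchors membrane proteins to the spectrin skeleton. Its member chr28:15837748-15848486 had 10, 22 and 26 reads in muscle and 0 in every adipose library, at least 18.8-fold higher by the floor of 3 reads over the group. The log2 difference was 0.58 with SE 0.11 and adjusted p = 0.0395 in limma. PTP4A2 had 11, 16 and 7 reads in muscle and 0, 2 and 0 in adipose tissue, a ratio of 16.6 (4.25 to 142, adjusted p = 0.0402 in limma). LARP1B, a La-related RNA-binding protein, had 10, 8 and 11 reads against 2, 0 and 2 at chr17:29954171-29972872 (adjusted p = 0.049 in limma).

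The last 3 calls were close to the threshold. The count of called members fell to 3 without cattle muscle 2 or 3, and to 2 without any 1 of the 3 adipose libraries. The calls over all circRNAs fell as well, from 62 to 43 and 36 without these muscle libraries and to 26, 41 and 24 without adipose libraries 1, 2 and 3. ANK3 and PTP4A2 passed under 7 of the 13 alternatives and LARP1B under 2.

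The quasi-likelihood test of edgeR on the recovered reads called 16 members, 9.47%, all higher in muscle, beside 7.15% of all circRNAs in that direction and 8.5% in either. They held 4 of the 5 above, LARP1B having an adjusted p of 0.0787. The 16 lay in 14 hosts, and all 16 had every muscle library above every adipose library. For 10 of them adipose tissue had 0 reads. These 10, and others with at most 1 read in each adipose library, passed the filter only through muscle. For them the separation was fixed by the filter. Of the edgeR calls named here, all but ASB18 lie outside the naming rule and were chosen after their values were seen. ADD1, the cytoskeletal protein adducin 1, had 22, 13 and 34 reads in muscle and 0, 2 and 0 in adipose tissue at chr6:107932343-107939842. A second ADD1 junction from chr6:107931675 to the same end had 17, 6 and 7 against 0.

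Other members called by edgeR were NEO1, the receptor neogenin, with 5, 18 and 16 reads in muscle against 0, and NSUN4, a mitochondrial RNA methyltransferase, with 17, 9 and 11 against 3, 1 and 1. MTFR1, a regulator of mitochondrial fission, had 5, 11 and 9 reads against 0, and SLC8A3, a sodium-calcium exchanger, had 4, 10 and 3 against 0. ASB18 had 6, 5 and 13 against 0. CDC14A (2 junctions), ZNF461 and AMOT were also called.

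**Figure D3:**
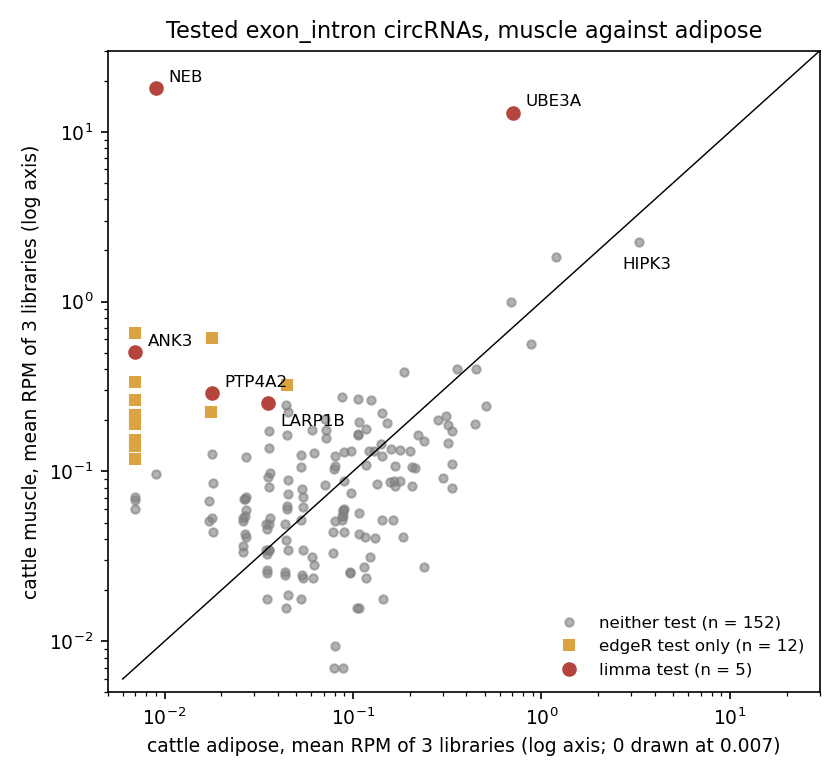
Mean RPM over 3 libraries in cattle muscle (vertical, log axis) against cattle adipose tissue (horizontal, log axis) for the 169 tested exon_intron circRNAs, with means of 0 drawn at the edge and the line of equal levels. NEB and UBE3A stand far above the line, the 5 members called by limma and the 12 called by edgeR alone are all on the muscle side, and HIPK3 lies just below the line.

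No member was called higher in adipose tissue by limma without a block or by edgeR. Over all 1917 circRNAs tested, limma called 0.156% higher in adipose tissue. Of the 163 that edgeR with TMM called over all circRNAs, 137 were higher in muscle and the rest in adipose tissue. The 13 members with every adipose library above every muscle library had 9 to 99 reads in adipose tissue, and the most abundant of them had the smallest ratio. ANKS3, an ankyrin repeat protein, had 24, 22 and 19 reads in muscle and 34, 34 and 31 in adipose tissue at chr25:3818743-3819044, an interval of 302 bp. The groups did not overlap, with 0.563 ± 0.063 against 0.878 ± 0.0696 RPM (n = 3 each). The log2 difference was -0.27 with SE 0.05 and adjusted p = 0.0518 in limma. KIF27, a kinesin motor, had 9, 7 and 6 reads against 21, 17 and 12 (adjusted p = 0.112). Of genes outside the naming rule and chosen after their values were seen, CLOCK, a transcription factor of the circadian clock, had 4, 6 and 7 against 11, 12 and 13 at chr6:72617875-72636679 (adjusted p = 0.0864). MAPK8, a stress-activated kinase, had 8, 10 and 10 against 13, 27 and 17 (adjusted p = 0.193, limma throughout).

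Some ratios were larger on fewer reads, in members likewise chosen after their values were seen. A second CLOCK junction, chr6:72623703-72636679, had 1, 0 and 2 reads in muscle and 4, 9 and 14 in adipose tissue. Its pooled ratio of muscle over adipose was 0.108, with a 95% counting interval of 0.0210 to 0.352, and its adjusted p was 0.145 in limma and 0.0616 in edgeR. CCDC88A, an actin-binding protein also called girdin, had 0, 9 and 1 reads against 8, 12 and 18, a ratio of 0.257 (0.114 to 0.525). Its adjusted p was 0.164 in limma and 0.0961 in edgeR. SHPRH, an E3 ubiquitin ligase of DNA repair, had 0 reads in muscle and 4, 2 and 4 in adipose tissue, at least 3.42-fold higher by the floor of 3 reads over the group (adjusted p = 0.211 in limma and 0.0694 in edgeR). MAPKAP1, a subunit of the mTORC2 kinase complex, had 0 against 3, 2 and 4, at least 3.08-fold higher (adjusted p = 0.247 in limma and 0.0789 in edgeR). CSNK2A1, the catalytic subunit of casein kinase 2, had 0, 0 and 1 against 3, 4 and 2, and CCSER2 had 0, 2 and 0 against 2, 4 and 6. SHPRH, MAPKAP1 and CSNK2A1 passed the filter only through adipose tissue, so the separation of their libraries was fixed by the filter.

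The tissue labels were checked with marker hosts at the circRNA level. Junction reads of 15 muscle fibre hosts, NEB among them, summed to 11.9 to 13.8 RPM in buffalo muscle and 24.3 to 33.8 in cattle muscle. Exon_intron circRNAs gave 9.93 to 11.1 and 15.4 to 22.1 RPM of these sums. The leading NEB junctions alone had means of 10.3 and 18.1 RPM, so the sums are not independent of the NEB values above. In cattle adipose tissue they summed to 0 to 0.108 RPM, with 12 of the 15 at 0 in all 3 libraries, MYBPC1 and RYR1 among them. ACTA1, DMD, MYH2, TRDN and TTN were at 0 in cattle muscle as well, so they do not tell the tissues apart. Junction reads of 15 adipocyte hosts summed to 1.30 to 1.88 RPM in cattle adipose tissue, 0.084 to 0.185 in cattle muscle and 0 to 0.0628 in buffalo muscle. ADIPOQ, AQP7, CD36, DGAT2, FASN, LEP, LIPE and PNPLA2 gave no circRNA read in any group, and CIDEC gave none in cattle adipose tissue. Each cattle adipose library had reads from 5 of the 15 adipocyte hosts. Exon_intron circRNAs of the adipocyte hosts reached at most 0.190 RPM. The part of cell mixture in the tissue differences was not tested.

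The hosts of exon_intron circRNAs were 288 in buffalo muscle and 801 in cattle, of which 197 were common to both. In buffalo, 145 hosts (50.3%) also gave an exon circRNA, and in cattle 568 (70.9%). Most hosts gave a single exon_intron circRNA, 81.3% in buffalo and 60.0% in cattle. Among these hosts of both types, the exon_intron reads outnumbered the exon reads in 39 in buffalo and 143 in cattle. By host label, the hosts with the most members in cattle were NEB, TRIP12 and ARID1B with 12 each and KANSL1L, KIF27 and THADA with 9 each. In buffalo they were KANSL1L with 5 and TRIP12, ARHGAP5, KIF27, MGAT4A, PATJ, KMT2E and CARF with 4 each. TRIP12 gave 86.4% of its exon_intron and exon reads in cattle as exon_intron, KANSL1L 93.2% and NEB 95.4%.

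Host mRNA levels in buffalo muscle were like those of exon circRNA hosts. The median was 14.1, 12.8 and 12.4 FPKM over the 262 exon_intron hosts with a transcript and 12.2, 11.9 and 11.8 FPKM over 2228 exon hosts. All 19917 transcripts of the table had medians of 2.91 to 2.99 FPKM. PTP4A2 was high with 715, 641 and 542 FPKM, and ASB18 was low with 5.61, 2.25 and 3.79 FPKM, although their exon_intron circRNAs were at like levels.

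Hosts were also counted in lists of gene functions. Across all genes, exon_intron hosts numbered 12.9% of exon hosts in buffalo (288 against 2229), 15.9% in muscle of cattle (609 against 3825) and 14.4% in adipose tissue (531 against 3689). Of 33 sarcomere and Z-disc genes, 2 gave an exon_intron circRNA in buffalo, 5 in muscle of cattle and 1 in adipose tissue, while 14, 24 and 5 gave an exon circRNA. NEB held all but 2 of the 1946 exon_intron reads of this list in buffalo muscle. LDB3, a Z-disc protein, gave the other 2. MYBPC1, a myosin-binding protein, had 1, 1 and 1 reads in cattle muscle. Of 22 genes of excitation-contraction coupling and the sarcolemma, 3, 4 and 0 were exon_intron hosts, against 14, 15 and 6 exon hosts. RYR1, the calcium release channel, and ATP2A1, the calcium pump of fast fibres, had at most 4 reads per junction.

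Lists of regulatory genes were counted in the same way. Of 24 chromatin regulators, 5, 8 and 7 were exon_intron hosts in the same order of groups, and 16, 21 and 22 were exon hosts. ARID1B, a subunit of the BAF remodelling complex, had 12 junctions with 63 reads in cattle, and KMT2E, a SET-domain protein, had 7 with 31 reads. Of 23 kinases, 4, 7 and 6 were exon_intron hosts and 18, 20 and 20 exon hosts, with HIPK3 in all 3 groups and CDK8, the kinase of the Mediator complex, at 6, 5 and 9 reads in cattle muscle against 0, 2 and 5. Of 24 ubiquitin system genes, 2, 7 and 4 were exon_intron hosts and 19, 21 and 20 exon hosts. The leading UBE3A junction held 1474 of the 1507 exon_intron reads of that list in cattle muscle, and UBE3A had none in buffalo muscle. Of 22 RNA-binding and splicing genes, 3, 5 and 4 were exon_intron hosts and 10, 12 and 11 exon hosts, among the former RBFOX2 and MBNL1.

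In the last lists, 0 of 13 genes of fuel use and mitochondria and 0 of 22 genes of extracellular matrix and adhesion gave an exon_intron circRNA in any group. Exon circRNAs came from 9, 9 and 7 of the former and 10, 17 and 18 of the latter, with 50, 184 and 226 exon reads from the matrix genes. No test was made of these counts against the shares over all genes. Genes of these kinds outside the lists were hosts, such as the collagen COL5A1 with 35 exon_intron reads in cattle and the mitochondrial NSUN4 and MTFR1. Of the list members that passed the filter for the tissue comparison, NEB and UBE3A were called. The other tested members, 4 junctions of chromatin regulators (ARID1B, CHD9 and KMT2E) and 2 of kinases (CDK8 and HIPK3), were not called by limma without a block.

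Exon_intron circRNAs spanned longer genomic intervals than exon circRNAs. The median span was 14984 bp against 9125 bp in the buffalo table and 17475 bp against 10292 bp in the cattle table. Within a library the ratio of medians ran from 1.45 to 1.79 and was above 1 in 9 of 9 libraries. Over 6 units it averaged 1.59, or 0.66 ± 0.10 on the log2 scale (exact sign-flip permutation p = 0.03125, the smallest that 6 units allow). Over the 6 muscle libraries alone the log2 ratio was 0.65 (exact permutation p = 0.03125). Among members with at least 2 reads in the library the log2 ratio was 0.43 (p = 0.0625), and weighted by reads it was 0.19 (p = 0.25, both exact permutation tests). Spans were also longer at the lower quartile, 4894 against 3518 bp in buffalo and 6109 against 4102 bp in cattle. Spans over 100 kb made up 4.89% of members and 1.19% of exon circRNAs in buffalo, and 6.25% and 1.90% in cattle. Spans under 1 kb were as frequent in members (7.07% and 5.76%) as in exon circRNAs (7.13% and 5.71%). The span counts introns that may have been removed, so it is not the length of the RNA.

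**Figure D4:**
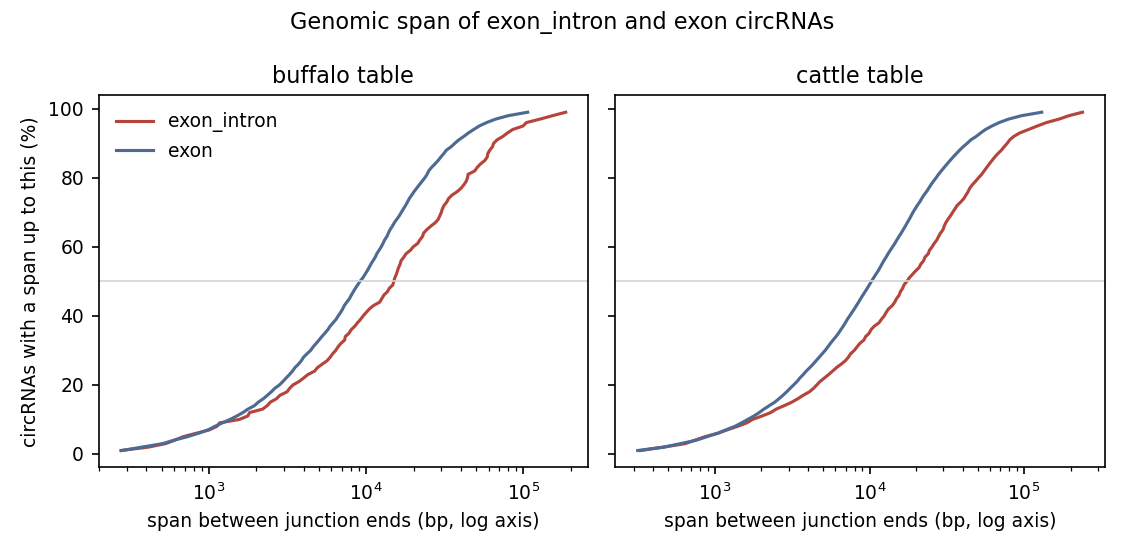
Cumulative share (%) of exon_intron and exon circRNAs by the genomic span between the junction ends (bp, log axis) in the buffalo and cattle tables, drawn from the 1st to the 99th percentile. The curves run together below about 1 kb and separate above it, with medians of 14984 and 9125 bp in buffalo and 17475 and 10292 bp in cattle.

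The types as labelled differed in their junction ends. By strand, the upstream end of a circle is its acceptor end and the downstream end its donor end. In cattle, 30.6% of members had the donor end in common with an exon circRNA and 8.82% the acceptor end. Of the exon circRNAs, 41.9% shared the donor end and 47.7% the acceptor end with another exon circRNA. In buffalo the members gave 15.5% for the donor and 6.25% for the acceptor end, and the exon circRNAs 21.3% and 28.4%. The gap between members and exon circRNAs was thus widest at the acceptor end in both tables. Either end was shared by 39.2% of cattle members against 67.4% of exon circRNAs and by 21.7% of buffalo members against 42.6%. Both ends were shared by 4 cattle members and no buffalo member. Rows of a table are not replicates, and no test was made. The rule that assigned the types is not known and may itself have used the ends. A gap set by the label therefore cannot be told apart from one in the molecules.

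**Figure D5:**
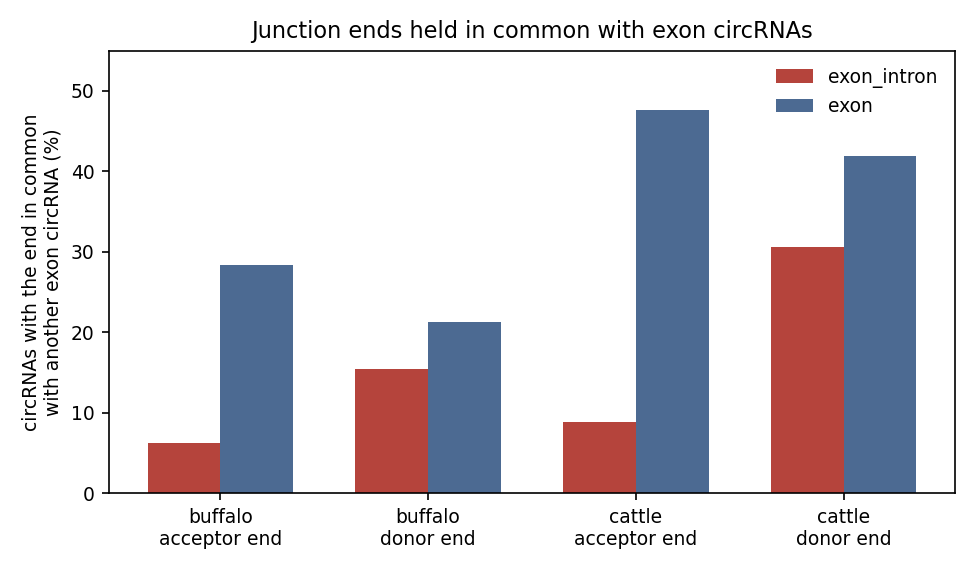
Share (%) of exon_intron and exon circRNAs whose acceptor or donor end is the end of another circRNA of the exon type, in the buffalo and cattle tables. Members reach 8.82% at the acceptor and 30.6% at the donor end in cattle, and 6.25% and 15.5% in buffalo, and bars of exon circRNAs are higher in all 4 places.

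Among themselves, members came together at acceptor ends. In cattle, 48.2% of members had their acceptor end in common with another member and 18.8% their donor end, and in buffalo 28.0% and 7.34%. Single acceptors served up to 10 members in cattle (FOCAD, chr8, position 23662590, under 2 host labels with 7 and 3 members) and 5 in buffalo (KANSL1L, chr2, position 98378567). All 5 KANSL1L members in buffalo began at that acceptor, as did 5 of the 9 in cattle. All 4 HIPK3 members in cattle began at position 64704077, with 635 of 638 reads in the 1099 bp junction. The 7 KMT2E members in cattle also had 1 acceptor, position 46497044 of chromosome 4, and spanned 16670 to 60468 bp. Of the 12 TRIP12 members, 8 began at position 118729424, where the abundant TRIP12 junction also begins.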

How the data were processed

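Per the submitters' processing notes, the authors used Trim Galore, STAR, Cufflinks 2.2.1 and Cuffdiff, with the assembly UMD3.1 of cattle for both species. The library kit, a TruSeq RNA kit, selects polyadenylated RNA as sold, and circRNAs carry no poly(A) tail, so levels are those of this protocol. The caller of circRNAs and the assignment of types are not given in the sources used here. The deposited circRNA tables give RPM per back-splice junction, and the deposited mRNA table gives FPKM per transcript. The 6 columns of other samples in the 3 tables used, and the lncRNA table, were not used.

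Every value in the RPM columns was a whole multiple of 1 step (100%, within 0.01 reads). The step was taken as 1 read, which gave totals of 35712276 to 65777231 reads per library. The type of each row, its ends and its reads were used as deposited, with no reassignment.

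Cattle muscle and adipose tissue were compared over all circRNA types with limma 3.58.1 (R 4.3.3) on log2(RPM + 1), with at least 2 reads in at least 3 of 6 libraries, Benjamini-Hochberg adjustment and a threshold of 0.05. Fold changes on this scale understate those of low circRNAs. edgeR 4.0.16 and DESeq2 1.42.0 on recovered reads, other filters, a pseudocount of 0.1, a block for the replicate number and omission of single libraries were alternatives. The tests over muscle libraries alone were chosen after seeing the data. On simulated data, 200 circRNAs changed 4-fold served to test the fits. Shares and spans were tested with exact two-sided permutation tests (SciPy 1.17.1). With 3 libraries per group, p-values rest on 3 animals each. Both cattle tissues came from 3 cattle, but the labels do not tie a replicate number to an animal.

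Named were the 5 members with the highest mean in each group, those called by limma, the 10 with the most reads found in both tables, the 5 hosts with the most members in each table, and members of hosts in the fixed lists. Members named only for an edgeR call or for higher levels in adipose tissue lie outside this rule and were chosen after their values were seen. Members, lists and tests were chosen with earlier results of these data known. The values of 1 member called by edgeR are not reported here.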

Additional observations from a re-analysis of the deposited data

How the results depend on the processing

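Most members rest on few reads, so a difference in a single junction was often not detectable at this depth, and with 3 libraries per tissue a share cannot reach p = 0.05 by permutation. The count of members called between cattle tissues, 5 by limma, was 15 with a pseudocount of 0.1 (123 of 1917 over all circRNAs, beside 62 by limma), 2 of 1440 with no filter (36 of 18535), 16 with edgeR and TMM (163 of 1917), 13 with edgeR without TMM (113 of 1917), 14 of 109 with DESeq2 (129 of 1211), and 2 to 7 with 1 library left out (3 without cattle muscle 2 or 3, 2 without any adipose library). All of these were higher in muscle. Over all circRNAs, limma called 59 of 62 higher in muscle and edgeR with TMM 137 of 163, a median log2 difference of 0.01 and 0.12. With the replicate number as a block, limma called 9 (86 of 1917 over all circRNAs), of which 8 were higher in muscle and 1, HIPK3, in adipose tissue (adjusted p = 0.0141). Deviations of same-numbered muscle and adipose libraries correlated at 0.238, 0.169 and -0.0156 over 1917 circRNAs, and the third pair did not correlate best with its own number, and no source used here says that a number marks an animal, so the libraries were taken to share only a number. The difference in the read share, 4.11 points, ran from 3.66 to 4.53 with 1 library left out, was 4.11 with the replicate block (exact permutation p = 0.25, the smallest it allows), and turned to -1.10 without NEB and UBE3A. Without NEB alone it was 1.10 points (exact permutation p = 0.2), and without UBE3A alone 2.07 points.

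The difference in single-read share, -0.513 points, ran from -1.003 to 0.396 with 1 replicate number left out, and turned positive (0.396) without number 2. The log2 span ratio, 0.66, was 0.43 with at least 2 reads and 0.19 weighted by reads, and 0.62 to 0.72 with 1 number left out, where an exact permutation of 4 units cannot go below p = 0.125. The gap in shared ends in buffalo, -20.8 points, was -31.5 against exon circRNAs of both tables, an alternative chosen after seeing the data. The members found in both tables, 185, were 88 with at least 2 reads in each species. In all, 27 alternative values of these results kept their direction and their side of the threshold or moved little. The read-share differences without NEB alone and without UBE3A alone are among these, although they were smaller. The cause of the changes was not tested, apart from the smaller number of units or reads where the setting itself removes them.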

Other observations

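Both ends of 4 cattle members, in FAM13A, RUNX1T1, OSMR and the pair SLC26A7 and LRRC69, were also ends of exon circRNAs, although the junction that joins them carries the exon_intron type. The leading exon circRNA of HIPK3, chr15:64742620-64745544, had 14, 14 and 17 reads in cattle muscle and 5, 5 and 0 in adipose tissue (adjusted p = 0.0493 in limma). The HIPK3 exon_intron circRNA had its higher mean in adipose tissue. It was not called by limma without a block and was called with the replicate number as a block (adjusted p = 0.0141). Whether the 2 junctions of HIPK3 differ in their tissue difference was not tested.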
